A study of Rattus norvegicus with 4 samples.

Results

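CD antigens are cell surface proteins that carry a cluster of differentiation number, given to molecules first recognised by antibodies on white blood cells. The genes described here are those whose only symbol on the array was Cd followed by a number, at most 1 letter and at most 1 further digit. Cd55, the rat Cd59 gene (Cd59b on the array) and Cd63 were left out by the rule. This left 56 genes of the 14217 named genes on the array, each read from the probe set with the highest mean over the 4 arrays. The rule used no measured difference between the groups, but it was chosen with earlier results of these data known. The same holds for the gene lists set beside the members, so the shares given below describe these lists and test nothing.

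The cells were Sertoli cells, the somatic cells that line the seminiferous tubule and nurse the germ cells, taken from male Sprague-Dawley rats aged 20 days. In the cAMP group they were cultured for 72 h with cAMP, and in the control group for 72 h without treatment, with 2 arrays per group. Cells of both groups were freshly isolated and kept in serum-free medium. Which cAMP compound was used, and at what dose, the labels do not state. The labels call the 2 samples of a group biological replicates but do not say whether they came from separate cell preparations, so p-values rest on a spread between samples that may be technical in part. The series asks how the basic helix-loop-helix transcription factors relate to cell differentiation, and its design sets cAMP-treated cells against untreated ones.

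The CD number groups proteins by antibody, not by function. Some members are tetraspanins, which cross the membrane several times and gather integrins and other proteins into clusters. Others are ligands that restrain or stimulate immune cells, receptors for matrix or lipid, or chains of the antigen receptors of lymphocytes. In the testis, follicle-stimulating hormone signals to Sertoli cells by way of cyclic AMP, and surface proteins of these cells meet germ cells, the basement membrane and neighbouring Sertoli cells.

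Of the 18 CD antigen genes that could be tested, 4 were called higher with cAMP (Cd24, Cd200, Cd9 and Cd81) and 0 lower. Among all named genes tested, 8.27% were called higher and 7.16% lower. Only Cd24 kept its call under every alternative setting described below. The 250 bases before the annotated start of these 4 genes are shown because they are the members that rose. The sequences are from RefSeq (GRCr8), read 5′ to 3′ on the gene's strand, with the half-site of the cAMP response element (TGACG or its reverse complement CGTCA) in capitals. The windows are chr20:48656227-48656476 on the plus strand for Cd24, chr11:68916065-68916314 on the plus strand for Cd200, chr4:159975359-159975608 on the minus strand for Cd9 and chr1:207665047-207665296 on the plus strand for Cd81.
Cd24: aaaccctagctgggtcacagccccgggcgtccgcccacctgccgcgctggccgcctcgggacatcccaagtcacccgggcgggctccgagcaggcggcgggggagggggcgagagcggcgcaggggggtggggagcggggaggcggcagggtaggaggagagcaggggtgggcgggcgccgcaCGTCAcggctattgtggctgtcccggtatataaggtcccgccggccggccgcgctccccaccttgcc
Cd200: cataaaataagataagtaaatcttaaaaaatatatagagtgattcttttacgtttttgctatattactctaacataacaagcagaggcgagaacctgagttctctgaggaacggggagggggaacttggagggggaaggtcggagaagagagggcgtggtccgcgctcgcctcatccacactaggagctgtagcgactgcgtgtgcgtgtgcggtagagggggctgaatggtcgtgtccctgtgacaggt
Cd9: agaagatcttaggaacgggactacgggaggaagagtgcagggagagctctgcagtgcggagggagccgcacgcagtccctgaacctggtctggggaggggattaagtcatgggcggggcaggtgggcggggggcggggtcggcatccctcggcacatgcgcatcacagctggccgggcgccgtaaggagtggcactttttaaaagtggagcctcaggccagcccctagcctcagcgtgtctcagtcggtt
Cd81: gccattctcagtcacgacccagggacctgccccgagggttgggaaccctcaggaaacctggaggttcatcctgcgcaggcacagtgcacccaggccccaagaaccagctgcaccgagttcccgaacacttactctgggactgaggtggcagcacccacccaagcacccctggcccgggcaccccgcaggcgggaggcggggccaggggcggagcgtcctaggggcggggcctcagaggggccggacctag
The window of Cd24 held 1 half-site, which began 67 bases before the start (position -67), and the windows of Cd200, Cd9 and Cd81 held none. The full element TGACGTCA was in none of the 44 CD antigen promoters that could be matched, against 1.70% of all 27457 RefSeq promoters in windows of the same length. At least 1 half-site on either strand, the full element included, was found in 8 of the 44 (18.2%), against 19.0% of all promoters. Among named array genes, half-sites were in 30.0% of those above background (defined below) on all arrays and 15.2% of those at or below it. The full element was in 3.14% and 1.13% of these classes. The matched CD antigen genes of these classes held half-sites in 2 of 14 (14.3%) and 4 of 20 (20.0%). A match is a description of letters in this window and names no bound factor.

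Signals are linear array units that the authors had scaled to a common trimmed mean. Background was set at 14.2, the maximum over the bacterial control probe sets. A gene was tested if its mean log2(signal + 16) lay at or above the 40th percentile of all probe sets, and 18 of the 56 genes did. The other 38 lay below this filter and have no test. Cd24 passed the filter only through its cAMP arrays, since both of its control arrays lay below background. Every log2 difference below is on the log2(signal + 16) scale, cAMP minus control, with its standard error (SE), and understates the change of dim genes. A gene is called higher or lower if the p-value from limma, adjusted by the Benjamini-Hochberg method over all tested probe sets, lies under 0.05. Among all 10035 named genes tested, 8.27% were called higher and 7.16% lower. Of the 18 tested CD antigen genes, 4 (22.2%) were higher, 0 were lower by limma, and 14 did not pass. At an unadjusted p under 0.05 there were 7, again with 0 lower, against 30.1% of all genes in either direction and 15.2% lower. The median log2 difference of the 18 genes was 0.29, beside -0.03 over all named genes tested. Both cAMP arrays lay above both control arrays for 10 of the 18 genes, against 28.8% of all genes, and below them for 3, against 32.6%.

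**Figure D1:**
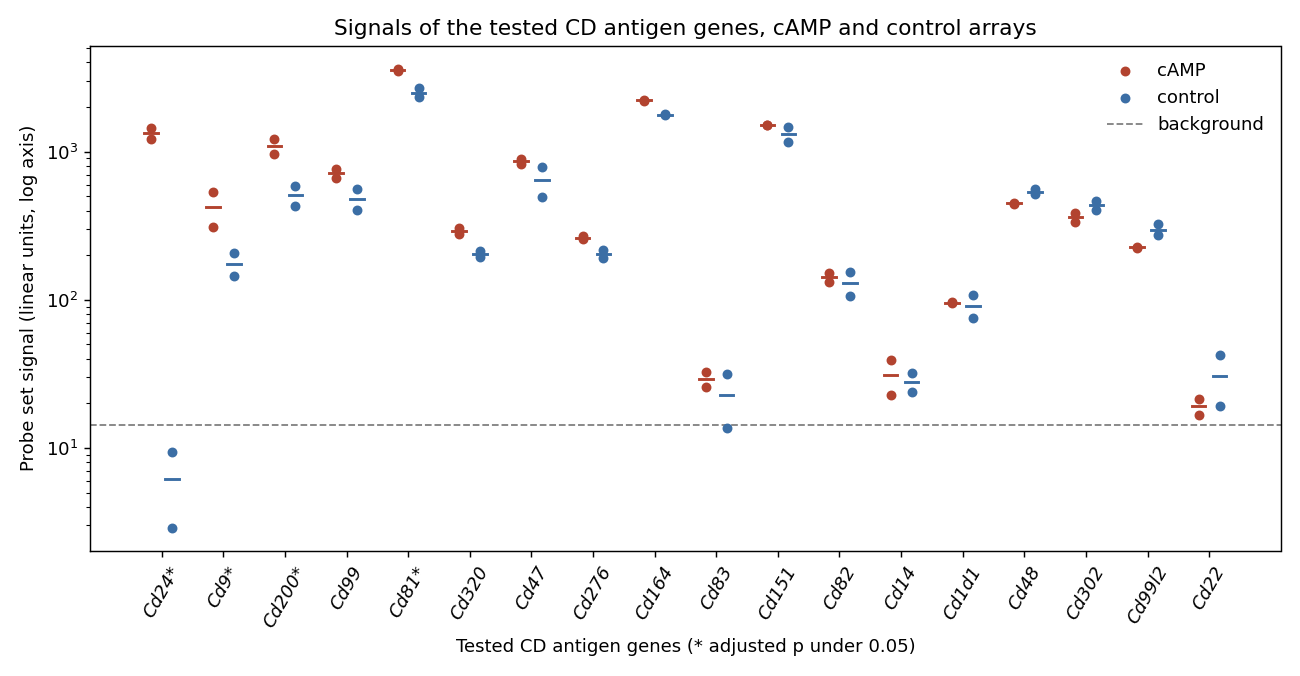
Signals of the 18 tested CD antigen genes on a log axis, with 1 point per array, a bar at the mean of the 2 arrays of a group, cAMP left of control, and the background of 14.2 as a dashed line. Cd24 reached 1222 and 1449 with cAMP and lay below the background on both control arrays, while the other genes differed between groups by far less than Cd24.

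Cd24 is a short, heavily glycosylated protein held in the membrane by a lipid anchor, and in humans it is a ligand of P-selectin and Siglec-10. Its signal was 1222 and 1449 on cAMP arrays 1 and 2, against 2.9 and 9.4 on control arrays 1 and 2. Both control values lay below background, so the change is given as a bound: Cd24 was at least 93.7-fold higher with cAMP. The fitted log2 difference was 5.94 ± 0.20 (adjusted p by limma = 2.48e-05), and with any 1 array left out it lay between 5.73 and 6.15 with an adjusted p of at most 0.00110. Its size depended on the pseudocount, at 7.71 with 1 and 4.31 with 64.

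Cd200 is an immunoglobulin-family glycoprotein that restrains macrophages and other myeloid cells through its receptor Cd200r1. Its signal was 966.3 and 1219 with cAMP, against 588.2 and 430.6 in control cells. The groups did not overlap, and the log2 difference was 1.08 ± 0.19 (adjusted p by limma = 0.0102). The receptor Cd200r1 lay below background on all 4 arrays, at 12.2 and 12.6 with cAMP and at 10.6 and 8.8 in control cells. A further Cd200 probe set read 5.5 or less on every array. Without cAMP replicate 1 the adjusted p of Cd200 was 0.0504, and without cAMP replicate 2 it was 0.118.

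Of the 6 tetraspanins, 4 were tested, 2 rose (50%, against 8.27% of all named genes tested) and the other 2 did not pass. Cd9, known from the egg surface, where it is needed for fusion with sperm in mice, had signals of 308 and 532 with cAMP, against 206.3 and 144.5 in control cells. Its log2 difference was 1.16 ± 0.27 (adjusted p by limma = 0.0332), and the cAMP arrays stood further apart than the control arrays. Cd81, which shares partners with Cd9, had signals of 3622 and 3509 with cAMP, against 2673 and 2334 in control cells. The change of Cd81 was smaller but its arrays lay close together (0.51 ± 0.12, adjusted p by limma = 0.0289). Cd151, which binds laminin-binding integrins, had signals of 1505 and 1524 with cAMP, against 1466 and 1162 in control cells, and did not pass (0.21 ± 0.14). The groups of Cd82, described as a suppressor of metastasis, overlapped, at 132.2 and 152 with cAMP against 153.1 and 105.9 in control cells (0.14 ± 0.21). The leukocyte tetraspanins Cd37 and Cd53 were below background on every array, with a highest signal of 10.8. Without cAMP replicate 2 neither Cd9 (adjusted p = 0.238) nor Cd81 (0.238) passed by limma, Cd81 was also lost without cAMP replicate 1 (0.291) and Cd9 without control replicate 2 (0.0732). Without the filter on dim probe sets the adjusted p by limma was 0.0909 for Cd9 and 0.0890 for Cd81, and without the intensity trend 0.0578 for Cd9 and 0.107 for Cd81.

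Among the other small glycoproteins, the sialomucin gene Cd164 had signals of 2245 and 2201 with cAMP, against 1766 and 1786 in control cells. The arrays of each group lay close together, yet the difference of 0.32 ± 0.11 did not pass (adjusted p by limma = 0.102). Cd99, a surface protein of leukocyte passage through vessel walls, had 662 and 765.9 with cAMP, against 560.4 and 402.7 in control cells (0.57 ± 0.18, adjusted p by limma = 0.0900). Its relative Cd99l2 had 227.9 and 223.9 with cAMP, against 271.8 and 324.5 in control cells, a difference of -0.37 ± 0.16. Cd99 and Cd99l2 thus had differences of opposite sign, neither past the threshold. Cd52, the target of a lymphocyte-depleting antibody in humans, was at or below 3.1 on every array.

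Cd47, which signals to the phagocyte receptor SIRP-alpha not to engulf the cell, was the 1 tested gene of the 6 adhesion and matrix receptors. Its signal was 829.4 and 894 with cAMP, against 791 and 497.6 in control cells, and the difference of 0.45 ± 0.21 did not pass (adjusted p by limma = 0.223). A second Cd47 probe set gave 747.4 and 785.7 with cAMP, against 632 and 534.2 in control cells (0.39 ± 0.14), which did not pass either. The receptor for hyaluronan, Cd44, was near background on both of its probe sets, at 9.7 and 20.7 with cAMP and at 11.9 and 9.7 in control cells on the one used. The fatty acid receptor gene Cd36 was below background on all arrays, at 11.3 and 9.8 with cAMP and 2.6 and 7.5 in control cells, so no fold is given. The stromal and endothelial antigens Cd248 and Cd93 also lay below background on every array.

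Cd320, the cell's receptor for vitamin B12 bound to transcobalamin, had the smallest p of the genes that did not pass. Its signals were 306.4 and 280.1 with cAMP, against 212 and 195.6 in control cells, without overlap (0.49 ± 0.15, adjusted p by limma = 0.0794). Cd276, a B7-family protein also called B7-H3, had 256.8 and 268.7 with cAMP, against 217.7 and 192.6 in control cells (0.34 ± 0.16). Like Cd320, it was higher on both cAMP arrays without passing. Cd48, a lipid-anchored ligand of Cd2 and Cd244 on leukocytes, had 452.8 and 441 with cAMP, against 559.7 and 514.2 in control cells (-0.26 ± 0.14). The lectin-like receptor gene Cd302 had 335.5 and 384.6 with cAMP, against 405.2 and 462.1 in control cells (-0.26 ± 0.15). For Cd48 and Cd302 both cAMP arrays lay below both control arrays, and neither difference passed.

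A further 4 tested genes had low signals and overlapping groups: the lipid-presenting Cd1d1 (0.07 ± 0.21), the lipopolysaccharide co-receptor Cd14 (0.08 ± 0.25), the dendritic cell marker Cd83 (0.26 ± 0.28) and the B cell lectin Cd22 (-0.37 ± 0.28). Cd1d1 read 96.5 and 95 with cAMP, against 107.5 and 75.4 in control cells. The highest signal among Cd14, Cd83 and Cd22 on any array was 42.3, on control array 2 for Cd22.

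**Figure D2:**
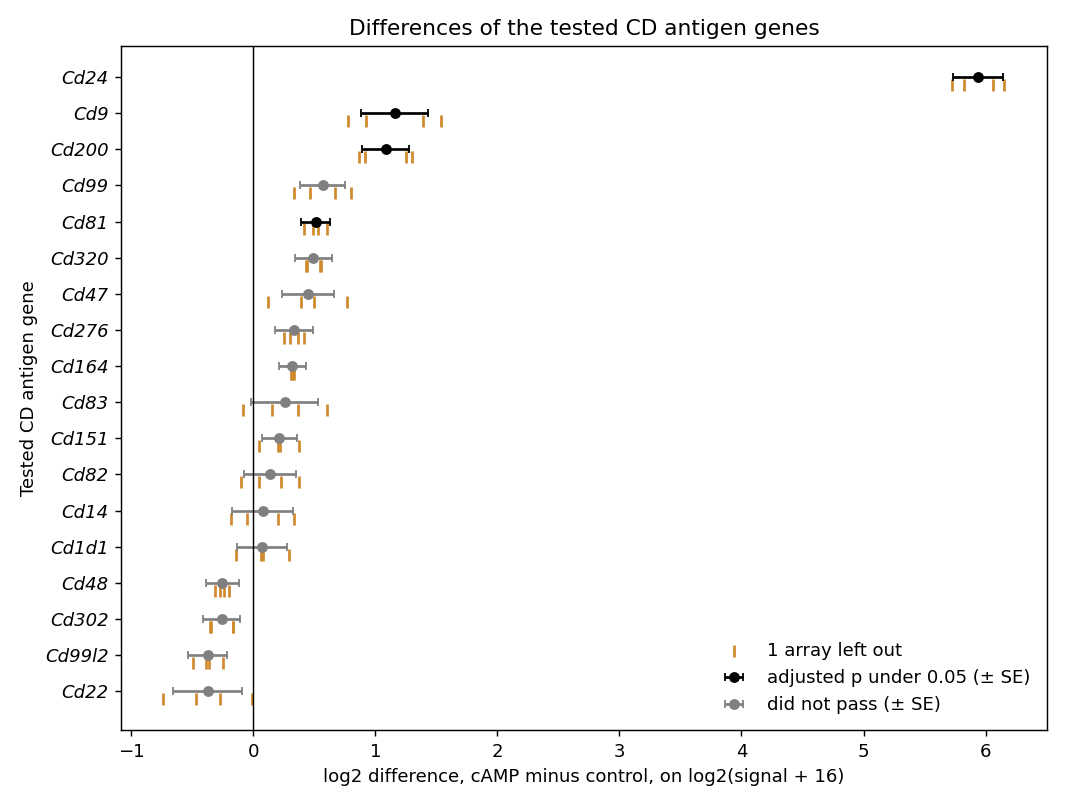
The log2 difference, cAMP minus control, of each tested CD antigen gene with its SE (2 arrays per group), in black for genes with an adjusted p under 0.05 and in grey for the rest. Orange ticks mark the value with each 1 of the 4 arrays left out, and those of Cd47 spread from 0.12 to 0.77.

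The number of genes that passed turned on single arrays. It was 2 without cAMP replicate 1 (Cd24 and Cd9), 1 without cAMP replicate 2 (Cd24), 3 without control replicate 2 (Cd24, Cd200 and Cd81) and 9 without control replicate 1. The 5 genes added in the last case were Cd47 (0.77 ± 0.12), Cd99 (0.80 ± 0.14), Cd151 (0.38 ± 0.10), Cd320 (0.55 ± 0.15) and Cd164 (0.31 ± 0.09), and Cd99l2 was then called lower (-0.49 ± 0.15). The share of all named genes called with 1 array left out was not counted, so these counts do not set the CD antigen genes apart. Control array 2 lay below control array 1 for 12 of the 18 tested genes (66.7%), against 56.0% of all named genes tested. The median absolute log2 difference within the cAMP pair was 0.15 for the CD antigen genes and 0.14 for all genes, while within the control pair it was 0.38 for the CD antigen genes and 0.21 for all genes. The actin 3′/5′ signal ratio, which rises as RNA degrades, was 1.86 and 1.64 on cAMP arrays 1 and 2, against 1.80 and 2.25 on control arrays 1 and 2. The same ratio for Gapdh was 0.930 and 0.937 with cAMP, against 0.966 and 0.903 in control cells, so control array 2 was the highest of the 4 by actin and the lowest by Gapdh. The part of RNA integrity in these differences was not tested.

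Many CD antigen genes gave no signal above background. All 4 arrays were at or below background for 27 of the 56 genes (48.2%), against 17.3% of all named genes, and 16 genes lay above it on every array. Of the 13 genes for chains of lymphocyte antigen receptors and lineage markers, such as Cd3e, Cd4, Cd8a and Cd79b, 7 were at or below background on every array and only Cd22 passed the filter. The 12 others reached at most 26.0, the value of Cd4 on cAMP array 1. Among the 12 co-stimulators and their ligands, 8 lay below the filter, with a highest signal of 17.1 (Cd7 on control array 1), and Cd40, Cd80 and Cd86 were below background throughout. Cd74, the chaperone of class II antigen presentation, had 3.0 and 9.5 with cAMP and 8.2 on both control arrays. Cd163, a haemoglobin scavenger receptor of macrophages, reached no more than 3.9.

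Cd68, a lysosomal glycoprotein abundant in macrophages, was not tested because it lay below the filter. It had 28.1 and 45.2 with cAMP, against 4.1 and 6.2 in control cells, so both cAMP arrays were above background and both control arrays below it. This made Cd68 at least 2.51-fold higher, and it passed where no filter was applied (log2 difference 1.30 ± 0.25, adjusted p by limma = 0.0451). The complement regulator Cd46, which in mice is found mainly on sperm, had 14.3 and 27.8 with cAMP, against 8.2 and 9.8 in control cells, at least 1.40-fold higher, and did not pass without the filter (adjusted p by limma = 0.309). Both changes rest on signals close to background. The general leukocyte marker Ptprc had 2.8 and 1.0 with cAMP and 2.3 and 5.4 in control cells, below background on every array.

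**Figure D3:**
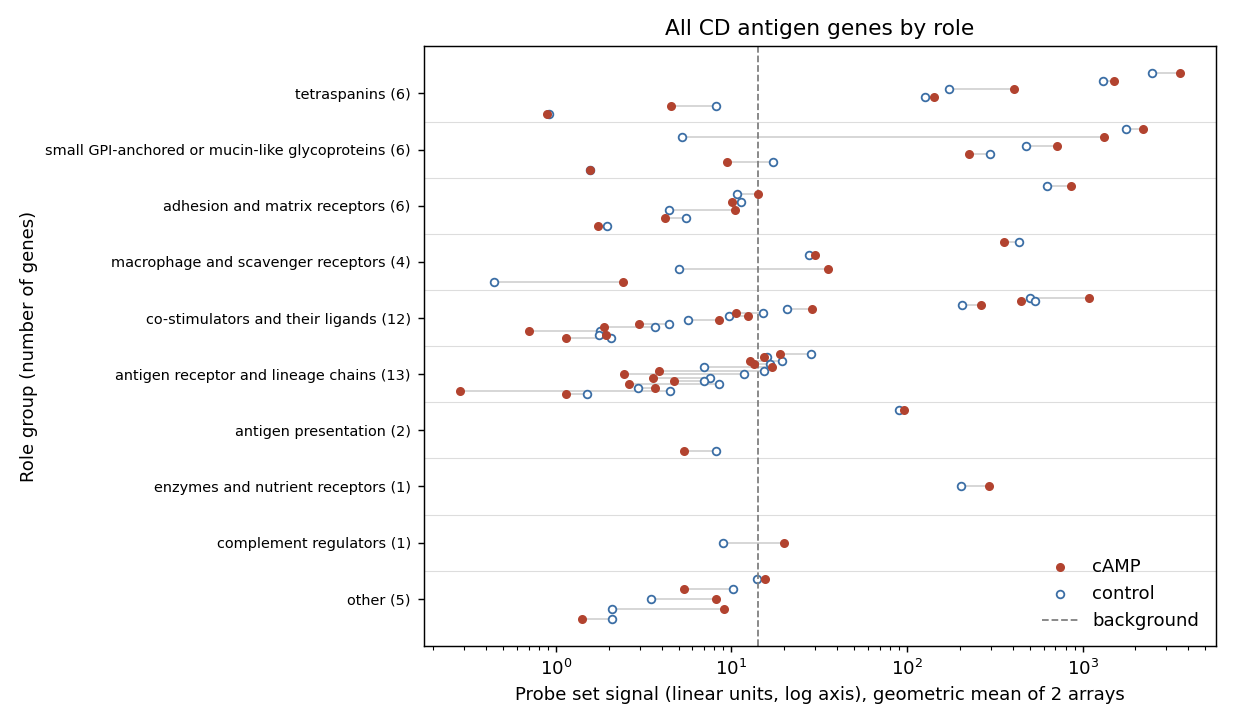
All 56 CD antigen genes by role group, with the geometric mean signal of the 2 cAMP arrays (filled) and the 2 control arrays (open) on a log axis, and the background of 14.2 as a dashed line. Most co-stimulators lie left of the background, lymphocyte chains lie left of it or close to it, and Cd24 is the gene whose symbols lie furthest apart.

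Markers of the cell types that the cultures could hold were read on the same arrays. Of 10 Sertoli cell markers with a probe set, 9 lay above background on every array, led by Clu, Cldn11 and Aard, and the summed signal of the list was 25236 to 25409 with cAMP and 23289 to 24845 in control cells. Of the 9 that were tested, Inha, Shbg and Dhh were higher and Aard and Gata4 lower, with log2 differences between 2.04 ± 0.15 for Inha and -0.94 ± 0.12 for Gata4. Of 14 leukocyte and macrophage markers, 7, including Ptprc, Itgam and C1qa, were at or below background on all arrays. Their summed signal was lower with cAMP, at 296.6 to 327.4, against 658.2 to 858.2 in control cells, and the actin-bundling gene Lcp1 alone had 44.6 and 67.9 with cAMP, against 391 and 444 in control cells. Without Lcp1 the sum was 252 and 259.5 with cAMP, against 267.2 and 414.2 in control cells. Beside Lcp1 the brightest were Mrc1 and Lyz2. The sum of the lymphocyte list (led by Lck, Zap70 and Cd3e) was 92.5 to 152.2 with cAMP and 107.2 to 142.1 in control cells. That of the peritubular myoid list (Tagln, Acta2, Des) was 201.7 to 256.6 with cAMP and 503.4 to 655.8 in control cells. Tagln and Synpo2 were called lower and Des higher. Without Tagln the sums overlapped, at 200.4 and 249.2 with cAMP and 311.3 and 239.1 in control cells. The endothelial list (Kdr, Tek, Esam) summed to 107.4 to 132.5 with cAMP and 185.3 to 258 in control cells. Without Kdr, which was lower, its sums were 75 and 49.3 with cAMP and 70.7 and 54.5 in control cells. Germ cell markers, chiefly Sycp3 and Tex101 with Prm1 below background, summed to 2216 to 2955 with cAMP and 2908 to 3056 in control cells. The sums of the Leydig (Cyp11a1, Hsd17b3, Insl3), erythroid (Slc4a1, Hbb, Ahsp) and platelet (Pf4, Itga2b, Ppbp) lists did not exceed 95.0 on any array. In a mixed culture, fewer cells of a type and less RNA per cell cannot be told apart, and the part of other cells in the changes of CD antigens was not tested.

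Transcripts for proteins that bind or cut the CD antigens, or make their ligands, were called in both directions. Of 26 such genes, 23 had a probe set and 15 were tested, of which 3 were higher, 4 lower and 8 did not pass. The called share was 46.7%, against 15.4% of all named genes in either direction. Of the called genes, Ezr and Rdx were listed for Cd44 and Mif for Cd74, which lay near or below background on these arrays. Of the 5 partners of tetraspanins on the list, 3 were lower, against 7.16% of all named genes. The laminin-binding integrin chains Itga6 and Itga3 fell, Itga6 to 497.6 and 523.1 with cAMP, against 2639 and 2433 in control cells (-2.28 ± 0.12), and Itga3 to 105.6 and 97.7 with cAMP, against 293.2 and 281.1 in control cells (-1.37 ± 0.16). Ptgfrn, an immunoglobulin-family protein that binds Cd9 and Cd81 directly, fell to 67.4 and 70.8 with cAMP, against 128.7 and 112.8 in control cells (-0.68 ± 0.18). Igsf8, which binds the same tetraspanins, did not pass, with a difference of 0.66 ± 0.21, nor did the shared integrin chain Itgb1 (-0.20 ± 0.17).

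Sirpa, whose protein is the phagocyte receptor for Cd47, rose to 262.5 and 277 with cAMP, against 157.9 and 136.1 in control cells (0.81 ± 0.16). Ezrin (Ezr) and radixin (Rdx), which link Cd44 and other surface proteins to actin, rose by 1.59 ± 0.27 and 0.63 ± 0.15, while the third member of their family, moesin (Msn), did not pass (0.29 ± 0.21). Mif, a cytokine that binds Cd74, fell to 1229 and 1070 with cAMP, against 2245 and 2124 in control cells (-0.92 ± 0.13). Tcn2, which encodes the transcobalamin taken up by Cd320, did not pass (0.77 ± 0.25), nor did Mmp14, a protease that sheds Cd44 (0.69 ± 0.19). The count of 7 was 3 without cAMP replicate 1 and 2 without cAMP replicate 2. Of the 7 calls by limma, Itga6 and Itga3 passed with any 1 array left out. Sirpa, Ezr and Rdx were lost without either cAMP array, Mif without cAMP replicate 2, and Ptgfrn without either cAMP array or control replicate 1. Without the filter on dim probe sets Rdx (adjusted p by limma = 0.0700) and Ptgfrn (0.0945) were lost, and without the intensity trend Rdx (0.0758).

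Other genes whose proteins carry a CD number but have another symbol were set beside them. Of 116 such genes, 104 had a probe set and 67 were tested, of which 11 were higher and 11 lower, 32.8% in all, against 15.4% of all named genes in either direction. Their median log2 difference was 0.11. The 5 largest increases were in Procr, the endothelial protein C receptor (2.30 ± 0.17), Ace, the angiotensin-converting enzyme (2.03 ± 0.23), the urokinase receptor Plaur, the heparan sulphate proteoglycan Sdc1 (1.65 ± 0.23) and the tumour necrosis factor receptor Tnfrsf1a (1.47 ± 0.32). Plaur lay below background on both control arrays and was at least 5.15-fold higher. It passed the filter only through its cAMP arrays. The 5 largest decreases were in Alcam, a homophilic adhesion molecule (-2.33 ± 0.31), Itga6, the aminopeptidase Enpep (-1.99 ± 0.15), Itga3 and the growth factor receptor Kdr (-1.23 ± 0.21). Sirpa, Ptgfrn, Itga3 and Itga6 are on both lists, which makes 18.2% of the called genes on this list and 57.1% of the called partners. The count of 22 was 7 without cAMP replicate 1 and 9 without cAMP replicate 2. Tnfrsf1a and Kdr were lost without either cAMP array, and Sdc1 and Plaur without cAMP replicate 1. Without the filter on dim probe sets Tnfrsf1a was lost (adjusted p by limma = 0.0801).

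**Figure D4:**
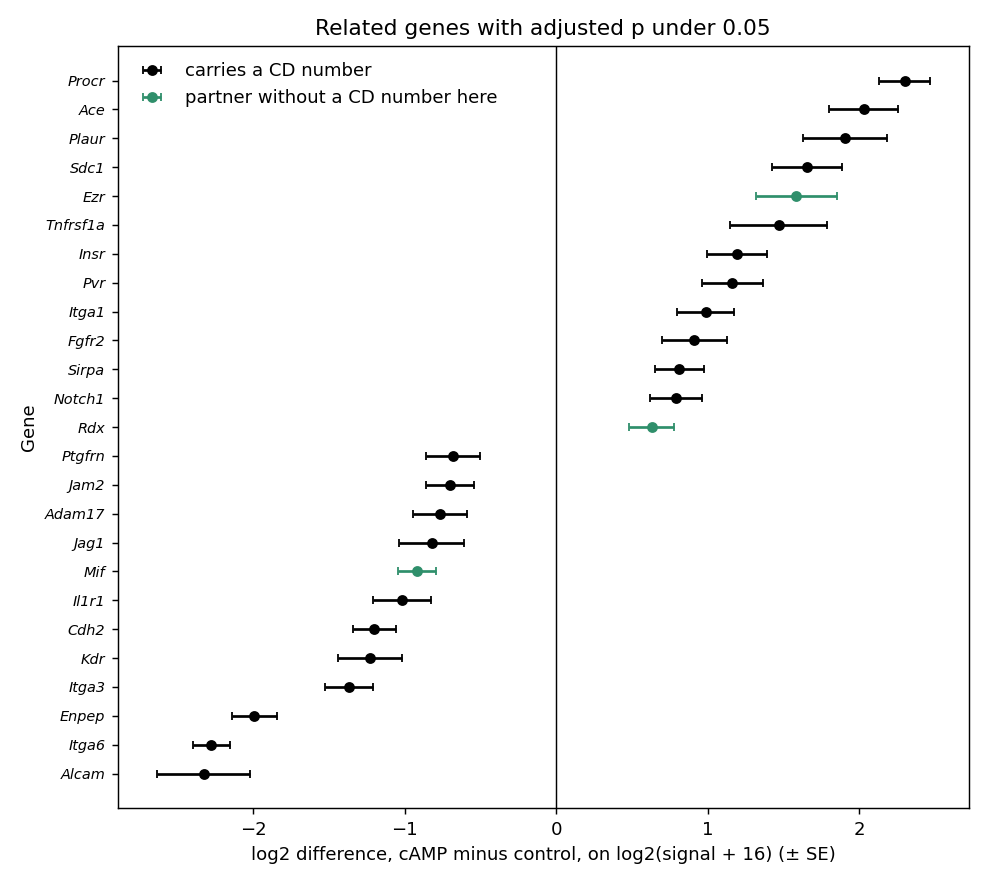
The log2 difference, cAMP minus control, with its SE (2 arrays per group) for the called genes that carry a CD number under another symbol (black) and for called partners of CD antigens that are not on that list (green). Procr and Ace lie at the top, and Itga6 and Alcam at the bottom.

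Where a gene had several probe sets, the further ones added no call. In all, 14 CD antigen genes had 15 further probe sets, of which 3 were tested and 0 passed by limma. Those of Cd99 (118.7 and 108.2 with cAMP, against 93 and 8.8 in control cells) and Cd276 (45.9 and 48.6 with cAMP, against 45.1 and 11.5 in control cells) both showed control array 2 far below control array 1. The base composition of the promoters was set beside detection. The median GC content of the 250 bases was 63.0% for the 14 matched CD antigen genes above background on every array and 50.0% for the 20 at or below it throughout, against 60.8% and 53.6% for all named array genes of these classes. A GC box (GGGCGG or CCGCCC) was in 8 of the 14 and in 3 of the 20, which is 57.1% and 15.0%, against 61.0% and 32.4% of all named array genes of these classes.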

How the data were processed

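Sertoli cell RNA of 2 cAMP and 2 control samples was hybridised as biotin-labelled cRNA to 1-colour Affymetrix rat arrays. The deposited values are linear probe set intensities made by the authors; the submitters' processing notes name GCOS and MAS5 without versions or settings. The mean without the lowest and highest 2% was 125.0 on every array, so arrays had been scaled before deposit.

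Of 31099 probe sets, 57 were controls, 20832 carried 1 gene symbol, 436 several and 9831 none in the platform annotation. Of those with 1 symbol, 20764 matched a RefSeq gene of GRCr8. Probe sets with several symbols named no gene. From the intensities log2(signal + 16) was computed. Probe sets at or above the 40th percentile (5.10) were tested, 18625 in all, with limma 3.58.1 in R 4.3.3 (lmFit, eBayes with an intensity trend, two-sided, Benjamini-Hochberg). The script was tested on 10 simulated sets, each with known changes in 200 of 18625 probe sets on the log2(signal + 16) scale. It recovered 27.4% of 2-fold and 93.7% of 4-fold changes, and 4.0% of its calls were false. In the measured data 15.4% of named genes were called, a larger share than was changed in the simulation, so these rates may not hold there. A gene that did not pass may still have changed. Background was the highest of 27 Bacillus control probe sets, and a bound sets the brighter group's geometric mean against it. The number of arrays limits the precision. Values after ± are standard errors of differences.

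The members, the role groups, the list of other CD molecules, the partner list and the marker lists were chosen with earlier results of these data known. Named genes were every member past the threshold, members with a mean signal of at least 200, the 3 smallest p-values above the threshold, the 5 largest changes each way of the other CD molecules, called partners and the 3 brightest markers of each list; further genes in the text were chosen with their values in view. Alternatives were the pseudocount, the filter, quantile normalization, no trend, leaving out each array, the replicate block and the choice of probe set. Same-numbered arrays deviated together with r = 0.16 across probe sets, and the labels do not say that a number marks a shared preparation, so they were not taken as pairs.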

Additional observations from a re-analysis of the deposited data

How the results depend on the processing

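The count of CD antigen genes called higher, 4, was 3 without the filter on dim probe sets (Cd24, Cd200 and Cd68) and 2 with eBayes without the trend (Cd24 and Cd200). It ranged from 1 to 9 with 1 array left out, and the count called lower, 0, from 0 to 1. For the other CD molecules, 22 in all, the range was 7 to 29, and for the partners, 7 in all, 2 to 8. Without the filter these counts were 16 and 5. The share of all named genes called was not counted under the alternative settings. With the replicate block the counts were 4 higher and 0 lower CD antigen genes, 24 other CD molecules and 8 partners, and the pairing of replicate numbers changed no call of a CD antigen gene. Counting Cd59b as a member, chosen after seeing the data, left 4 higher and 0 lower. A pseudocount of 1 or 64, the filter at the 60th percentile and quantile normalization left the same 4 genes called. Taking probe sets without _x_at or _s_at could not change these calls, since no CD antigen gene was read from such a probe set. The count of other CD molecules was then 21. Over the 18 tested CD antigen genes and 15 called genes of the other lists, 350 of 391 values under these settings kept direction and call, 30 lost the call, 6 gained it and 5 changed sign. The kept values include those of the 14 CD antigen genes that had no call to lose. They also include those under the choice of probe set, which were the same by construction. The tally thus overstates how stable the calls were. The sign changes were in genes that did not pass and came with 1 array left out, which gave -0.18 to 0.33 for Cd14, -0.10 to 0.37 for Cd82, -0.14 to 0.29 for Cd1d1 and -0.083 to 0.60 for Cd83. The negative values arose without control replicate 2, except for Cd14, where leaving out cAMP replicate 2 or control replicate 1 gave them. The cause was not tested. Leaving out an array leaves 1 sample in a group, which is assumed to vary like the other group. Signals near the background of 14.2 limit what can be said of the genes below the filter.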
